A study of Mus musculus with 4 samples.

Results

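The Zic genes encode zinc finger transcription factors that were first described in the cerebellum, and 4 of them, Zic1, Zic2, Zic4 and Zic5, are described here across 3 mouse neural progenitor cell (NPC) lines and a tissue pool. These are 4 of 19499 named genes on the array, and all non-control probes that the array files name by one of these symbols were used, 6 of 41174 probes: 2 for Zic1, 2 for Zic4 and 1 each for Zic2 and Zic5. An NPC line is a culture of dividing neural precursor cells, and these 3 were each derived from a different mouse embryonic stem (ES) cell line: NS21 from the ES line 21 (strain 129/Ola), NS195R from 195R (129/Sv) and NSEB5-2C from EB5 (129/Ola). Mixture, against which the study set the lines to pick transcription factors of NPCs, was a pool, in equal mass, of RNA from day 11 embryo and from liver, lung, spleen, thymus, kidney and heart, with the strain label Swiss Webster. Each sample was total RNA labelled with the dye Cy3 and hybridised to 1 array of a 1-colour Agilent design, so each line has 1 array and no replicate of its own.

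Zic proteins bind DNA through a block of C2H2 zinc fingers that is related to that of the Gli proteins, the effectors of Hedgehog signalling, and they can act together with Gli proteins. In the embryo they are made in the dorsal neural tube, in the cerebellar primordium, in somites and in the coverings of the brain. The genes lie in head-to-head pairs, Zic1 with Zic4 on chromosome 9 and Zic5 with Zic2 on chromosome 14. Zic1 acts in cerebellar granule cell precursors, and deletions that remove human ZIC1 and ZIC4 together are associated with a malformation of the cerebellum. Zic2 acts in forebrain midline development and in axon choice in the retina, and mouse Zic5 in neural crest formation and closure of the neural tube.

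Each member was represented by 60-base probes at these places, as the array files list them (genome build not given in the sources used here). The Zic1 probes A_51_P194230 (chr9:90989326-90989385) and A_52_P428654 (chr9:90989346-90989405) share 40 bases and are not independent measurements. The Zic4 probe A_51_P145480 (chr9:91007466-91007525) was designed on the cDNA AK028305 and the Zic4 probe A_52_P502228 (chr9:91017892-91017951) on NM_009576, and 10366 bases lie between them. Zic2 had the probe A_51_P364592 (chr14:116884204-116884263) and Zic5 the probe A_51_P111950 (chr14:116864322-116864381). Exon, intron or UTR positions of the probes were not analysed here, and levels are never compared between probes, since probes differ in how well they bind.

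The promoter windows of RefSeq (assembly GRCm38.p6, 250 bases before to 50 bases after the listed start) held entries for 3 of the members and are shown because the members of each pair shared their direction in NS21 against the other lines in the data that follow. The capitals mark the letters CCAAT and CACGTG, 2 of 4 short motifs searched on both strands. Each sequence is written 5′ to 3′ on the strand of its gene. The Zic1 window lies at chr9:91365719-91366018 (minus strand), the Zic4 window at chr9:91368722-91369021 (plus strand) and the Zic5 window at chr14:122465609-122465908 (minus strand).
Zic1: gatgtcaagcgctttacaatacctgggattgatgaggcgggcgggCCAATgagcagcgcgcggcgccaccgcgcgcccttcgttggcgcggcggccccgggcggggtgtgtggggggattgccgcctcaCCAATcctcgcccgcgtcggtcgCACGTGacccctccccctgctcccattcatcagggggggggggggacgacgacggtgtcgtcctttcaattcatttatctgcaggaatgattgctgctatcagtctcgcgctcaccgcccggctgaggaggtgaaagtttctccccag
Zic4: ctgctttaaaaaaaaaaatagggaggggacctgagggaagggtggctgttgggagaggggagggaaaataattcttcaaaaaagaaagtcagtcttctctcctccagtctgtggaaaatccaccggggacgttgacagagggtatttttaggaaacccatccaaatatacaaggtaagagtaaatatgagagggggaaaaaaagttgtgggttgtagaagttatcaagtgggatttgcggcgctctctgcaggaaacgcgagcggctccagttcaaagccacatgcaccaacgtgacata
Zic5: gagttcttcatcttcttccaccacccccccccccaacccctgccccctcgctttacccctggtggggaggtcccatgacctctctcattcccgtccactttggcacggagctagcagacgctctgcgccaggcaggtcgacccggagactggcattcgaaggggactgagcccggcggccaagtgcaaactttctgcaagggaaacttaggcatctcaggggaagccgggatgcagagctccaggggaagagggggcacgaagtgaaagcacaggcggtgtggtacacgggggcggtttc

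The listed starts of Zic1 and Zic4 lie on opposite strands with 3203 bases between them. The Zic1 window is 65.3% G and C and holds 31 CpG dinucleotides, a number reached by 10.6% of the 32851 promoter windows in the table. The Zic4 window is 46% G and C with 8 CpG (48.7% of windows have as many), and the Zic5 window 62.7% with 15 CpG (34.6% of windows). CCAAT occurred 2 times in the Zic1 window, starting at positions -205 and -121 relative to the start, and in 37.4% of all windows. CACGTG, an E-box, occurred once there, starting at position -98, and in 7.15% of all windows. TATAAA, found in 13.6% of all windows, and CTGCTG, found in 31.6%, had no match in the 3 windows, and neither CCAAT nor CACGTG had one in the Zic4 and Zic5 windows.

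The arrays were of like quality. Between 23983 and 25690 spots, of 43379 that are no controls, were well above background in the NPC lines, against 26840 in Mixture, and the spots flagged as saturated numbered 0. The Zic2, Zic4 and Zic5 signals were all under 50 units. Repeated probes that were under 50 units and still well above background had a median SD within an array between 0.135 and 0.159 on the log2 scale. This SD does not cover the Zic values that were not well above background, whose spot errors are given below. For Mixture, the source label gives a doxycycline-treated NPC culture, unlike its title, so marker genes were checked: of 18 markers of the pooled tissues, the number well above background was 2 in NS21 and in NSEB5-2C and 4 in NS195R, against 17 in Mixture. Of 12 markers of neural progenitors, 8 were well above background in NS21, with 12 in NS195R and 10 in NSEB5-2C, against 11 in Mixture. Nes and Vim were among those in every line, while Sox2, Fabp7 and Hes5 were among those not well above background in NS21. No NPC line has the strain of Mixture, so in each ratio to it the cell type and the strain cannot be told apart.

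Zic1, the member with the widest difference between the lines, was high in NS195R and NSEB5-2C and near the limit of detection in NS21. Probe A_51_P194230 had a processed signal of 10.01 ± 2.19 in NS21, with 1011 ± 101 in NS195R and 1858 ± 186 in NSEB5-2C, against 92.1 ± 9.4998 in Mixture, where the error is the scanner software's own estimate for the spot. Probe A_52_P428654 had 16.8 ± 2.58 in NS21, with 1073 ± 107 in NS195R and 1753 ± 175 in NSEB5-2C, against 91.7 ± 9.45 in Mixture. With both probes NS21 was the lowest of the 4 arrays, below Mixture, and the other lines were above Mixture. After scaling to each array's percentile 75, Zic1 was 95.6-fold lower in NS21 than in NS195R by A_51_P194230 and 60.3-fold lower by A_52_P428654. It was 191-fold and 107-fold lower in NS21 than in NSEB5-2C by the same probes. Across the 29699 tested probes, those that 1 or more arrays measured well above background, 0.0404% were as far below NSEB5-2C in NS21 as A_51_P194230 was. NS195R and NSEB5-2C lay closer together, with a log2 difference of NS195R minus NSEB5-2C of -0.998 by A_51_P194230 and -0.83 by A_52_P428654. In these bulk samples, fewer cells that make a transcript and less of it per cell cannot be told apart.

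Zic4, which lies head to head with Zic1, showed the same order of NS21 against the other lines. Its differences were smaller, but its signals were dim, and the limit of detection caps how far below the other lines NS21 can read. The sizes of the Zic1 and Zic4 differences therefore cannot be compared. Probe A_51_P145480 had a signal of 8.22 ± 1.68 in NS21, with 37.8 ± 4.03 in NS195R and 17.3 ± 2.18 in NSEB5-2C, against 8.94 ± 1.88 in Mixture. NS21 and Mixture lay within their spot errors of each other, both just above the lowest signal counted as well above background on their arrays, 7.19 in NS21 and 8.10 in Mixture. Zic4 by this probe was 4.35-fold lower in NS21 than in NS195R and 2.17-fold lower in NS21 than in NSEB5-2C. Where NSEB5-2C had the higher Zic1, NS195R had the higher Zic4, with a log2 difference of NS195R minus NSEB5-2C of 1.002 by A_51_P145480. The other Zic4 probe, A_52_P502228, was well above background only in NS195R, at 12.1 ± 2.02, while it read 2.12 ± 1.60 in NS21 and 6.48 ± 1.68 in NSEB5-2C, against 4.07 ± 1.89 in Mixture. By it Zic4 was at least 1.59-fold higher in NS195R than in NS21 and at least 1.72-fold higher in NS195R than in NSEB5-2C, where "at least" sets the brighter array against the lowest signal counted as well above background on the dimmer one or against the dim value itself, whichever is higher.

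Zic2 and Zic5, the pair on chromosome 14, went the other way and were highest in NS21. Zic2 (A_51_P364592) had a signal of 25.4 ± 2.92 in NS21, with 3.93 ± 1.45 in NS195R and 6.51 ± 1.45 in NSEB5-2C, against 1.64 ± 1.63 in Mixture. It was well above background in NS21 and NSEB5-2C and not in NS195R or Mixture, and the NSEB5-2C value lay at the limit of 6.36 on that array. Zic2 was 3.79-fold higher in NS21 than in NSEB5-2C, at least 3.88-fold higher in NS21 than in NS195R and at least 3.39-fold higher in NS21 than in Mixture. Zic5 (A_51_P111950) had a signal of 13.6 ± 2.31 in NS21, with 2.69 ± 1.84 in NS195R and 2.57 ± 1.64 in NSEB5-2C, against 2.17 ± 2.16 in Mixture. Only the NS21 value was well above background, as for 612 (2.06%) of the 29699 probes. Zic5 was at least 2.07-fold higher in NS21 than in either other line and at least 1.81-fold higher in NS21 than in Mixture. For both genes NS195R and NSEB5-2C did not differ beyond their spot errors.

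**Figure D1:**
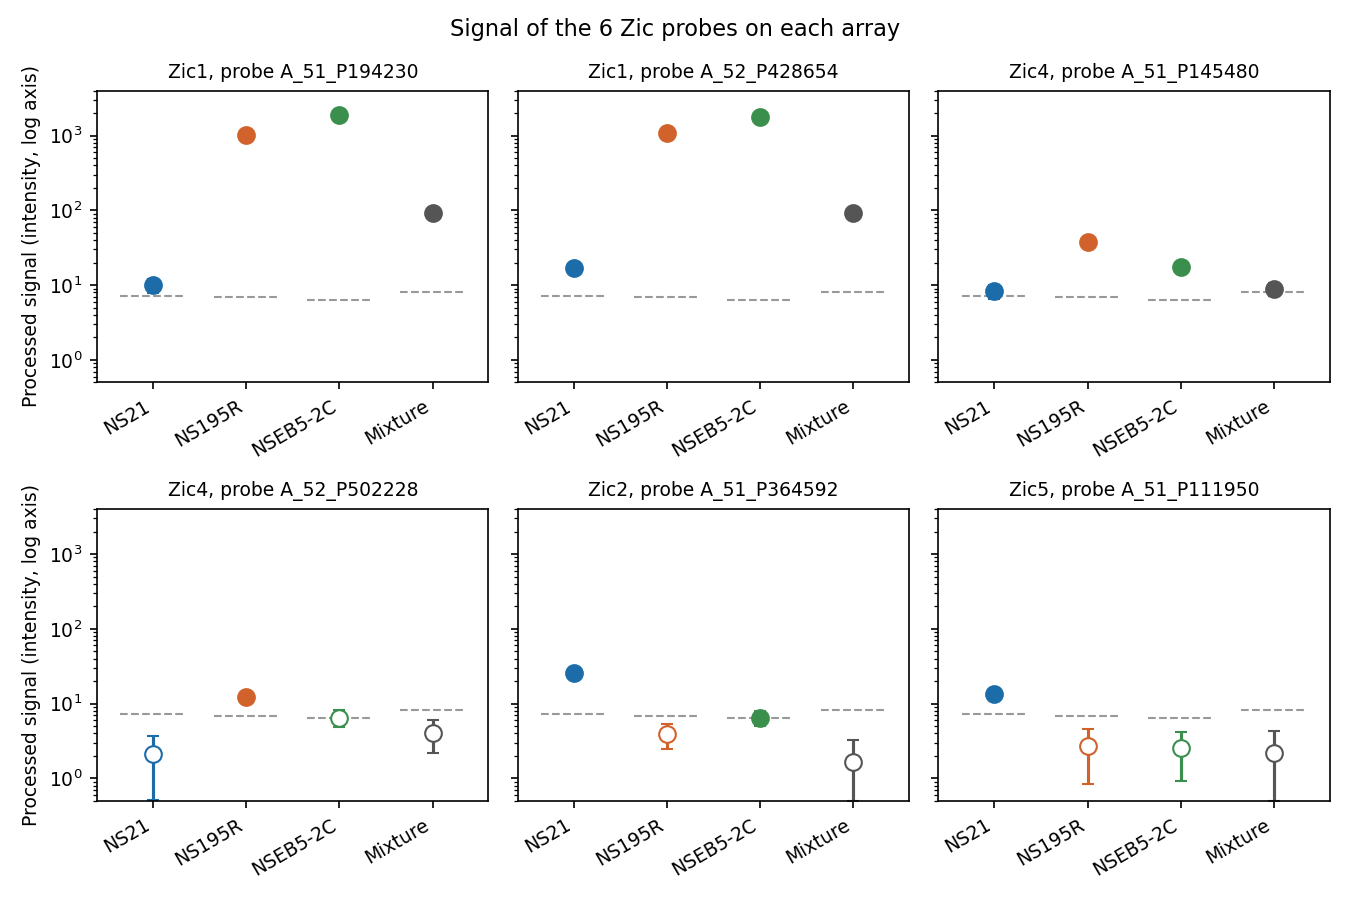
Processed signal (intensity, log axis) of each of the 6 Zic probes on the arrays of NS21, NS195R, NSEB5-2C and Mixture. Filled points were well above background and open points were not, bars are the scanner software's error of the spot (cut at the lower edge of the axis), and dashed lines give the lowest signal counted as well above background on each array; Zic1 (A_51_P194230) read 10.01 in NS21 and 1858 in NSEB5-2C, while Zic2 and Zic5 were highest in NS21.

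By the order of the levels, then, Zic1 ran NSEB5-2C, NS195R, Mixture and NS21 by both probes, with no neighbouring values within their spot errors. Zic4 by A_51_P145480 ran NS195R, NSEB5-2C, and then Mixture and NS21 with no difference beyond error. Zic2 and Zic5 had NS21 first and the other arrays at or under the limit of detection. Between the lines, 4 of the 6 probes (both of Zic1 and both of Zic4) lay at least 2-fold below both other lines in NS21, a distance that 5.72% of all tested probes reached, and the Zic2 and Zic5 probes exceeded both by at least that much, as did 8.10% of all tested probes. With dim values, those under the well-above-background call, raised to the limit of their array, these numbers were 3 below, against 3.72% of all probes, and 2 above, against 6.63%, since the Zic4 probe A_52_P502228 no longer counted. With a background correction that adds an offset of 50 to each spot (normexp), only the 2 Zic1 probes stayed 2-fold below and no Zic probe lay 2-fold above. NS195R exceeded both other lines by at least 2-fold for 1 probe, the Zic4 probe A_51_P145480 (12.1% of all probes), and lay 2-fold below both for none (7.05%). NSEB5-2C lay 2-fold above both for none (6.62%) and 2-fold below both for none (9.29%). The NS195R call, with a margin of 1.002 on the log2 scale, was lost with normexp, quantile normalization and median scaling, and with median scaling NSEB5-2C lay 2-fold above both for 2 probes.

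The limma fit of NS21 against NS195R and NSEB5-2C, with 1 residual degree of freedom, passed no Zic probe and called 0 of all 29699 probes after adjustment, against 1541 (5.19%) at an unadjusted p under 0.05, among them both Zic1 probes and the Zic5 probe, the last with both other lines not well above background. The scaled log2 level of Zic1 by A_51_P194230 was -4.57 in NS21, against a mean of 2.50 in the other lines, a difference of -7.08 (SE 0.70, limma adjusted p = 0.775). By A_52_P428654 it was -3.82 in NS21, against 2.50, a difference of -6.33 (SE 0.61, limma adjusted p = 0.775). The difference was -1.62 for the Zic4 probe A_51_P145480 (SE 0.70, limma adjusted p = 0.9995). For the remaining probes the fit reads values that were not well above background in 1 or both of the other lines or, for the Zic4 probe A_52_P502228, in NS21 and NSEB5-2C, so its differences of 2.39 for Zic5, 2.35 for Zic2 and -2.04 for A_52_P502228 are not measured sizes. With dim values raised they were 1.05 for Zic5, 1.94 for Zic2 and -0.28 for A_52_P502228. The size of the Zic1 difference was exceeded on the same side by few probes: 0.0303% of all tested probes lay as far below in NS21 as A_51_P194230, and 0.0741% as far as A_52_P428654.

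**Figure D2:**
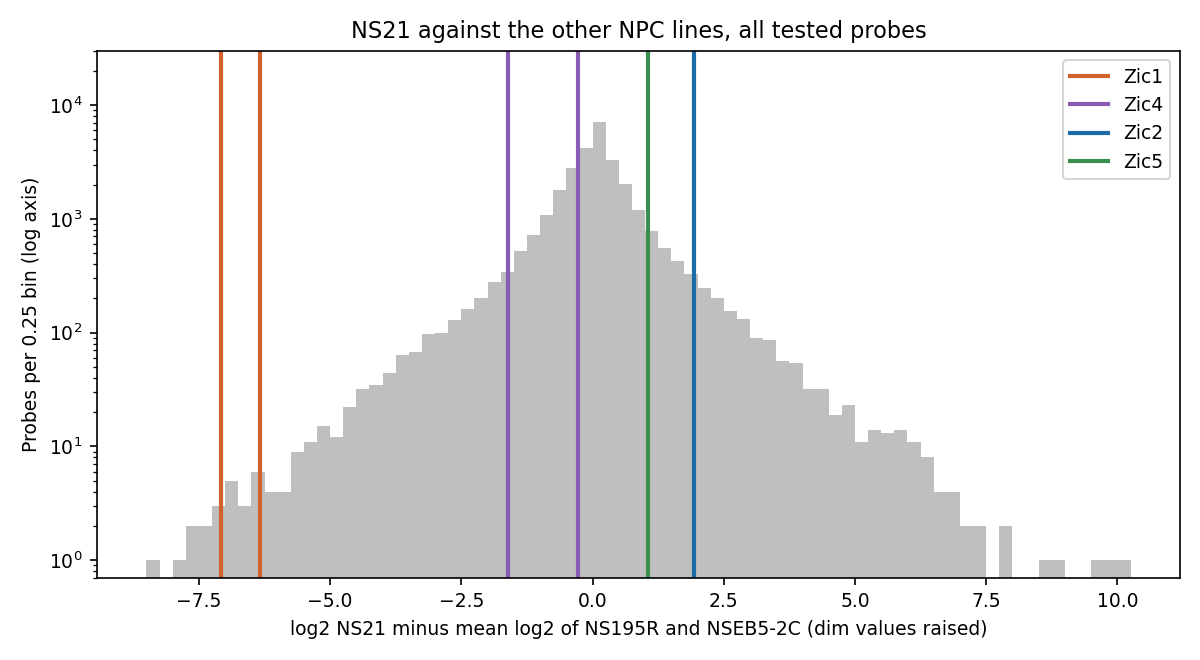
Number of tested probes (log axis) by the log2 difference of NS21 minus the mean of NS195R and NSEB5-2C, in bins of 0.25, with dim values raised to the limit of their array. Coloured lines mark the 6 Zic probes: the Zic1 probes lie at -7.08 and -6.33, in the lower tail, and the Zic2 and Zic5 probes at 1.94 and 1.05, on the upper side.

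Against Mixture, no Zic probe passed limma, a test that called 0.943% of the 29699 probes higher and 7.88% lower in the NPC lines, 8.82% in all. Of the calls over all probes 10.7% were thus higher ones, against 34.8% with normexp and 29.7% with quantile normalization. None of the Zic probes passed at an unadjusted p under 0.05 either, where 16.9% of all probes were higher and 13.8% lower. Mixture, with 1 array, was taken to vary as the lines do. By line, the log2 ratio of Zic1 (A_51_P194230) to Mixture was -3.08 in NS21, with 3.49 in NS195R and 4.49 in NSEB5-2C. By A_52_P428654 it was -2.33 in NS21, with 3.59 in NS195R and 4.41 in NSEB5-2C. Zic1 thus lay 11.3-fold above Mixture in NS195R and 22.5-fold above it in NSEB5-2C by A_51_P194230, where 1.59% and 0.306% of all tested probes were as far above, and 8.49-fold below it in NS21. The mean of the 3 lines was 1.63 above Mixture on the log2 scale (SE 3.65, limma adjusted p = 0.787), with 2 of the 3 lines above it. Without NS21 it was 3.99 and without NSEB5-2C 0.20, so the mean rests on which lines enter it. By A_52_P428654 the mean was 1.89 (SE 3.27, limma adjusted p = 0.736), with 3.999 without NS21 and 0.63 without NSEB5-2C.

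For Zic4 by A_51_P145480 the log2 ratio to Mixture was -0.0041 in NS21, with 2.12 in NS195R and 1.11 in NSEB5-2C, and a mean of 1.07 (SE 0.999, limma adjusted p = 0.525), which was 0.55 without NS195R and 1.61 without NS21. For the Zic4 probe A_52_P502228, Zic2 and Zic5, Mixture and 1 or 2 of the lines were not well above background, so their means are not measured sizes. They were 0.54 for A_52_P502228 (SE 1.15, limma adjusted p = 0.777), 2.50 for Zic2 (SE 1.30, limma adjusted p = 0.290) and 1.17 for Zic5 (SE 1.27, limma adjusted p = 0.583). With dim values raised to the limit they were 0.13, 0.47 and 0.16 in that order. Without NS195R the mean of A_52_P502228 was 0.0018 and without NS21 1.22, and without NS21 that of Zic5 was 0.38. The median log2 ratio to Mixture was 0.75 over the probes that were well above background on all 4 arrays and 0.54 over all tested probes, and the Zic ratios stand beside that shift.

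**Figure D3:**
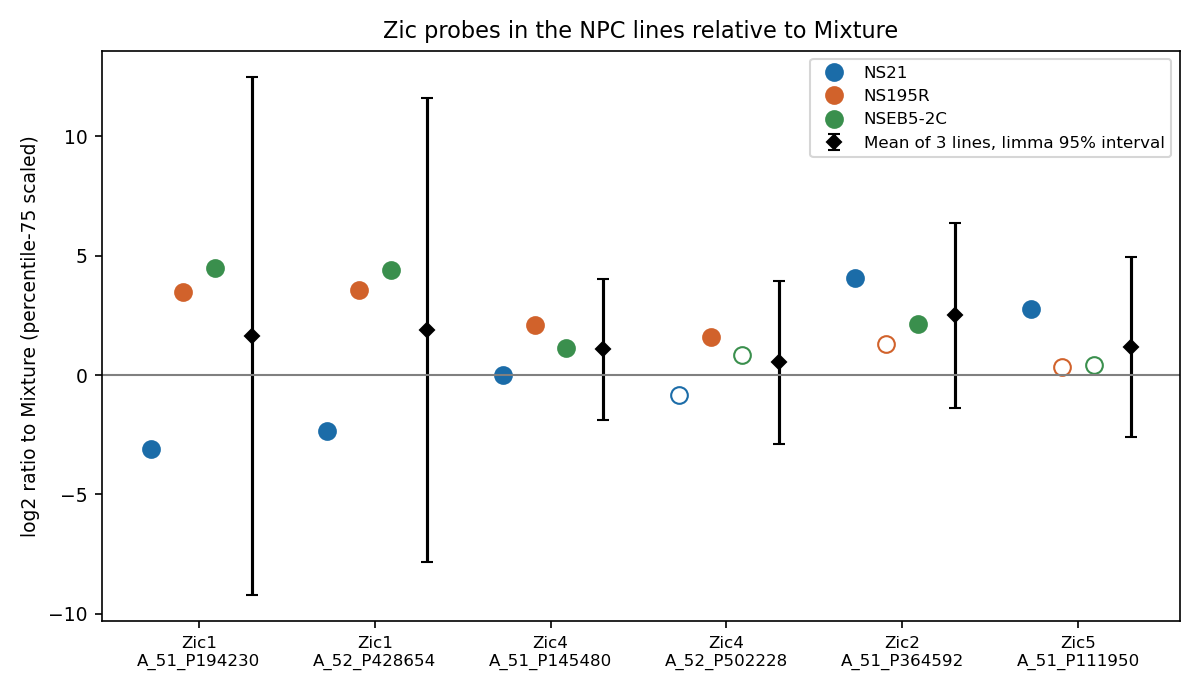
log2 ratio to Mixture of the 6 Zic probes in NS21, NS195R and NSEB5-2C (circles, open where the line was not well above background), with the mean of the 3 lines and its 95% interval from limma (diamonds). All intervals include 0, and Zic1 lies below 0 in NS21 and above 3 in the other lines.

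The study picked genes at least 1.5-fold above Mixture in NSEB5-2C together with a further line, NS195R or NS21. With the further condition that the passing lines be well above background, 4 of the 6 Zic probes passed, where 38.2% of all tested probes did. Zic1 (both probes) and Zic4 (A_51_P145480) passed through NSEB5-2C and NS195R, and Zic2 passed through NSEB5-2C and NS21. The Zic2 call rests on an NSEB5-2C signal at the limit of detection and a Mixture signal below it. Zic5 and the Zic4 probe A_52_P502228 were not well above background in NSEB5-2C and did not pass. With normexp only the 2 Zic1 probes passed, and with a 2-fold rule the number stayed at 4.

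The Gli-type zinc finger genes, the closest relatives of the Zic family, were measured in all lines for 4 of 6 genes (Gli2, Gli3, Glis1 and Glis2), and none passed limma, against 0.943% of all probes higher and 7.88% lower. Gli2, a Hedgehog effector, had as log2 ratio to Mixture -0.14 in NS21, with 1.67 in NS195R and 2.30 in NSEB5-2C. It was the 1 of 4 tested at least 2-fold lower in NS21 than in both other lines (3.72% of all probes with dim values raised). Gli3, whose product acts mainly as a repressor of Hedgehog targets, had 5.20 in NS21, with 2.58 in NS195R and 3.84 in NSEB5-2C. It was the 1 of 4 at least 2-fold higher in NS21 than in both other lines (6.63%) and the 1 of 4 at least 2-fold lower in NS195R (5.64%). Glis1 lay below Mixture in every line, at -1.91, -2.74 and -3.16 in the order NS21, NS195R and NSEB5-2C (limma adjusted p = 0.114). Gli1 and Glis3 did not exceed background well on any array.

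Dorsal neural tube genes mark the side of the neural tube where Zic genes are active. With dim values raised, none of them was at least 2-fold lower in NS21 than in both other lines. Without raising, Msx3 and Bmp6 read more than 2-fold lower there. Neither was well above background in NS21 or NS195R, so with raised values such a call could not be made for them. Of 14 listed genes 10 were tested and none passed limma in either direction, with a median log2 ratio of -0.10 beside 0.54 over all tested probes. With dim values raised, 4 of the 10 exceeded both other lines by at least 2-fold in NS21 (6.63% of all probes), and none lay as far below (3.72%). These 4 were the homeobox genes Msx1 and Msx2 and the ligand genes Bmp4 and Bmp7. A further 2, Msx3 and Bmp6, exceeded both other lines 2-fold in NSEB5-2C (5.38% of all probes) and were not well above background in NS21, and 4 (Pax3, Msx1, Msx2 and Bmp4) were 2-fold below both in NS195R (5.64%). Msx1 had as log2 ratio to Mixture 3.58 in NS21, with -2.41 in NS195R and 1.84 in NSEB5-2C. Pax3, a paired-box factor that acts with Zic1 in neural crest induction in Xenopus, exceeded the limit of detection of Mixture, where it was not well above background, by 4.08 in NS21, with 1.10 in NS195R and 3.29 in NSEB5-2C on the log2 scale. Wnt1, Lmx1a, Olig3 and Atoh1 did not exceed background well on any array.

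**Figure D4:**
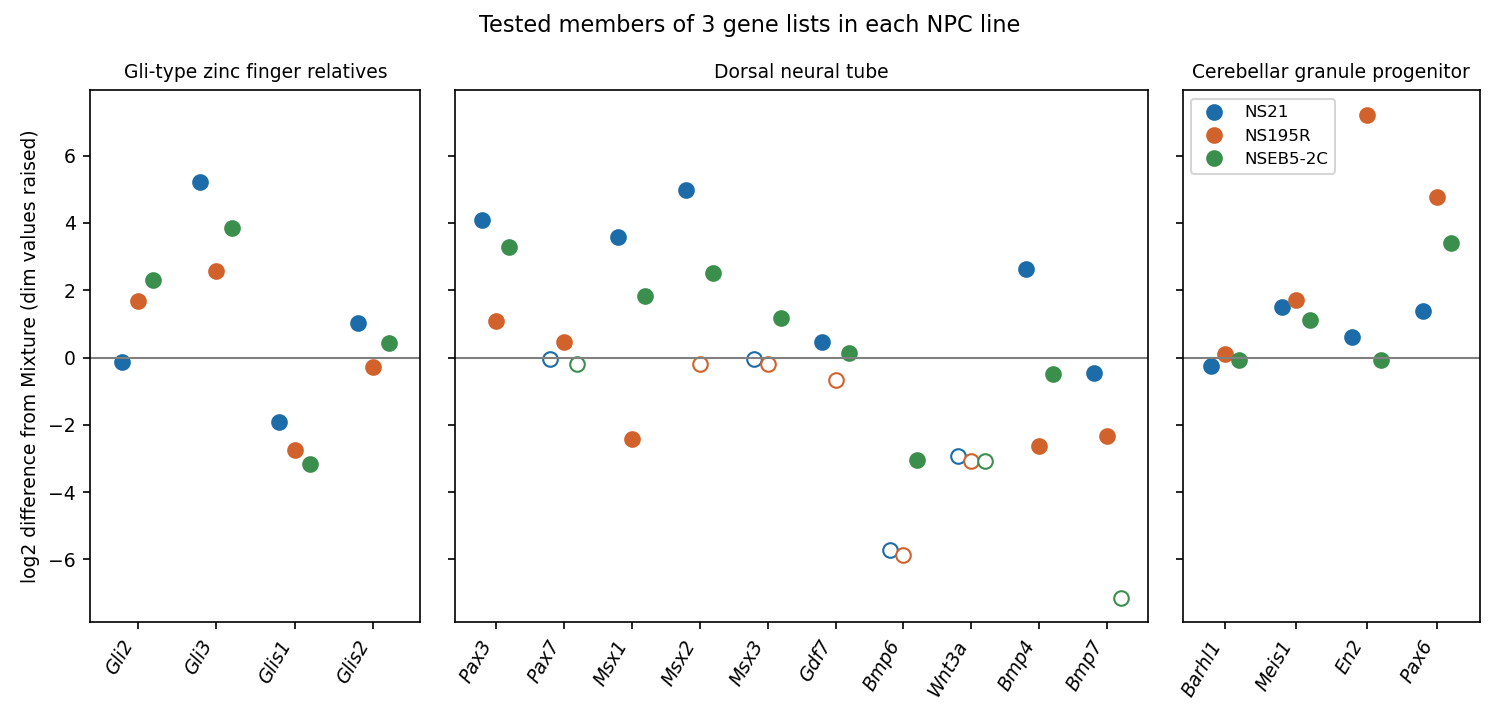
log2 difference from Mixture, with dim values raised to the limit of their array, for the tested Gli-type, dorsal neural tube and cerebellar granule progenitor genes in NS21, NS195R and NSEB5-2C. Open points were not well above background in that line; Gli2 is lowest in NS21, while Gli3, Msx1, Msx2 and Bmp4 are highest in it.

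Cerebellar granule progenitors are a cell type in which Zic1 is active, and their defining factor Atoh1, which Zic1 represses in chick neural tube, did not exceed background well on any array. Of the 6 genes listed for them, 4 were tested and none passed limma. En2, a midbrain and hindbrain factor, had a log2 ratio of 0.62 in NS21, with 7.21 in NS195R and -0.07 in NSEB5-2C. Pax6 was not well above background in Mixture. It exceeded the limit there by 1.38 in NS21, with 4.76 in NS195R and 3.40 in NSEB5-2C on the log2 scale. Pax6 was the 1 of 4 at least 2-fold lower in NS21 than in both other lines (3.72% of all probes with dim values raised). En2 and Pax6 were the 2 of 4 at least 2-fold higher in NS195R (9.80%). Barhl1 lay within 0.37 on the log2 scale among the lines and Meis1 within 0.60. The part of this cell type in the Zic levels was not tested.

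Of 12 reported partners and targets of Zic proteins, 9 were tested, and 1 passed limma as lower, a share near the 7.88% of all probes. This was Apoe, a lipid carrier gene whose human promoter ZIC1 and ZIC2 can bind. Its log2 ratio was -4.28 in NS21, with -5.68 in NS195R and -5.04 in NSEB5-2C (mean -5.000, limma adjusted p = 0.0455, lower in 3 of 3 lines). Any part of the Zic levels in these ratios was not tested. Of the 17 tested markers of the tissues pooled in Mixture, 16 also passed limma as lower. The part of those tissues in the Apoe ratio was not tested. With any 1 line left out, limma passed no probe, Apoe included. Ephb1, an axon guidance receptor gene downstream of Zic2 in the mouse retina, had 0.02 in NS21, with 1.04 in NS195R and -4.31 in NSEB5-2C, where it was not well above background. Wnt7a was well above background only in NS195R among the lines, at a log2 ratio of 2.88. Mdfi, whose product binds Zic proteins, was at least 2-fold higher in NS21 than in both other lines (1 of 9, beside 6.63% of all probes), at 2.16 in NS21, with -0.45 in NS195R and -1.18 in NSEB5-2C. Ccnd1, the cyclin D1 gene, was the 1 of 9 at least 2-fold lower in NS21 than in both other lines (3.72% of all probes), at 1.72 in NS21, with 2.89 in NS195R and 2.75 in NSEB5-2C.

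Other cell types in which Zic1 is made gave these values. Of 7 genes of meninges and head mesenchyme, 7 were well above background in NS21, with 5 in NS195R and 5 in NSEB5-2C, against 7 in Mixture, and none passed limma. Foxc1, which is needed for the meninges, lay above Mixture by 1.73 in NS21, with 1.93 in NS195R and 1.76 in NSEB5-2C on the log2 scale (limma adjusted p = 0.0829), with no line apart. Twist1, a mesenchyme factor, had 0.83 in NS21, with 2.96 in NS195R and 3.84 in NSEB5-2C, and Col1a1 was below Mixture in every line, and these 2 of the 7 were at least 2-fold lower in NS21 than in both other lines (3.72% of all probes), while Foxd1 was 2-fold higher in NS21 (6.63%). Lum, a matrix proteoglycan gene of fibroblasts, varied most, at -4.21 in NS21, with -0.65 in NS195R and -10.53 in NSEB5-2C, where it was not well above background. Of the 6 somite and dermomyotome genes, 5 were tested. Tbx18 was not well above background in NS21 and had 1.29 in NS195R and 2.15 in NSEB5-2C. It was the 1 of 5 at least 2-fold lower in NS21 than in both other lines (3.72% of all probes with dim values raised). Meox1, Meox2 and Tcf15, 3 of 5, were at least 2-fold higher in NS195R than in both other lines (9.80%). These 3 were also at least 2-fold lower in NSEB5-2C than in both other lines (6.02%). Myf5 did not exceed background well on any array. Of the 7 neural crest genes, 5 were well above background in each line, and 2 (Tfap2a and Snai2) were 2-fold above both other lines in NSEB5-2C and 2 (Sox9 and Sox10) in NS195R, beside 5.38% and 9.80% of all probes. Neither the somite nor the neural crest list had a member past limma, and the part of these cell types in the Zic levels was not tested.

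Of the 12 neural progenitor markers, 7 were at least 2-fold higher in NS195R than in both other lines, beside 9.80% of all probes, among them Sox2, Pax6, Nes and Slc1a3, and Prom1 was 2-fold higher in NS21. Sox2 and Pax6 were the ones at least 2-fold lower in NS21 than in both other lines, 2 of 12 tested, beside 3.72% of all probes. Sox2 did not exceed background well in NS21 and had log2 ratios of 6.26 in NS195R and 4.44 in NSEB5-2C. Fabp7, a radial glia gene, was well above background only in NS195R among the lines, at 5.003. Of the 5 tested genes of pluripotent cells, Pou5f1 and Esrrb were 2-fold above both other lines in NS21 (6.63% of all probes), Zfp42 and Klf4 in NSEB5-2C (5.38%), and Klf4 was 2-fold lower in NS21 (3.72%). Pou5f1 exceeded the limit of Mixture, where it was not well above background, by 3.53 in NS21 on the log2 scale. Of 6 pluripotency genes, 4 were well above background in NS21, with 2 in NS195R and 3 in NSEB5-2C, against 3 in Mixture, and Nanog did not exceed background well on any of the arrays. Ventral neural tube genes were measured for 8 of 10, with none past limma, against 0.943% of all probes higher and 7.88% lower. Dbx2, not well above background in NS21, was at least 2-fold lower there than in both other lines, as Zic1 was (1 of 8, beside 3.72% of all probes). Foxa2 was 2-fold above both other lines in NSEB5-2C (5.38%) and 2-fold below both in NS195R (5.64%). Its log2 ratio was -3.38 in NS21, with -4.59 in NS195R and 0.59 in NSEB5-2C. Nkx2-2 and Olig2 were well above background only in NS195R (3.92% of all probes) and Nkx2-9 only in NS21 (2.06%).

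The genes nearest to Zic1 and Zic4 differed less between the lines than Zic1, though Adamts7 and Plscr1 differed more than Zic4 by A_51_P145480. Those nearest to Zic5 and Zic2 did not exceed both other lines in NS21 by 2-fold. Of the 2 nearest protein-coding genes on each side (RefSeq, GRCm38.p6), those beside Zic1 and Zic4 that had probes were Tbc1d2b, Adamts7 and Plscr1. Tbc1d2b had a signal of 42.0 in NS21, with 148 in NS195R and 134 in NSEB5-2C, against 158 in Mixture, and Adamts7 224, 586 and 1014 in the lines, against 118 in Mixture. Both were at least 2-fold lower in NS21 than in both other lines, as 5.72% of all tested probes were. Their ranges between the lines were 1.73 and 2.22 on the log2 scale. Zic1 by A_51_P194230 had a range of 7.58 and Zic4 by A_51_P145480 one of 2.12, the latter capped by an NS21 signal near the limit of detection. Plscr1 was lowest in NS195R, at 271, with 3419 in NS21 and 2890 in NSEB5-2C, against 1208 in Mixture. Its range was 3.74 on the log2 scale. Beside Zic5 and Zic2, the metabolic genes Clybl and Pcca were lowest in NSEB5-2C, at 51.8 and 151, and Tm9sf2 varied by 0.88 on the log2 scale between the lines.

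The pattern most like that of Zic1 (A_52_P428654) over the 4 arrays, among 25688 probes with a gene symbol, was that of Fndc3c1, with a root mean square difference of 0.20 on the log2 scale after each probe was centred on its own mean and dim values were raised. Its signal was 2.79 in NS21, where it was not well above background, 418 in NS195R and 817 in NSEB5-2C, against 52.2 in Mixture. The next were Fez1, an axon growth gene, at 0.70, and Il1rap, an interleukin receptor subunit gene, at 0.74. Il1rap was not well above background in NS21. For Zic4 (A_51_P145480) they were probes of Tkt (0.02), Cd300ld3 (0.05) and Fgfrl1 (0.06). The Tkt and Cd300ld3 probes were not well above background in NS21 or Mixture, so their likeness rests on raised values there. Fgfrl1, an FGF receptor-like gene, was well above background on all 4 arrays at 303 in NS21, with 1554 in NS195R and 710 in NSEB5-2C, against 360 in Mixture. For Zic2 the nearest were Fam71f1 (0.01), the cytokine gene Il1a (0.02) and Nkx2-9 (0.02), and for Zic5 Shroom4 (0.000912), 1700001C19Rik (0.00264) and Tanc2 (0.00325). Each of these last 6 was well above background in NS21 alone, so that their likeness rests on the NS21 value and on raised values elsewhere. Between members, Zic1 (A_52_P428654) and Zic4 (A_51_P145480) differed by 2.06, and Zic2 and Zic5 by 0.39. The nearest probes were picked as the smallest differences among 25688, so the values of the member pairs cannot be set against theirs. That of Zic2 and Zic5 also rests on the NS21 values and on values at or near the limit elsewhere.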

How the data were processed

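Intensity values per spot were deposited as scanner output of Agilent Feature Extraction 9.5.3.1, run with spatial and multiplicative detrending on and its separate background correction off, and with surrogate values for dim spots, per the file headers. At each of 45018 features the deposited value table repeats this processed intensity, and 0 of its columns belonged to other samples. All 4 arrays lay on 1 slide in 1 scan, so no batch could be tested.

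Here log2 processed signals of 43379 non-control spots were scaled to each array's percentile 75, outlier-flagged spots were left out, and repeated spots were averaged, which left 41155 of 41174 probes. Two-sided tests were run with the functions lmFit and eBayes of limma 3.58.1 (R 4.3.3) on the 29699 probes that at least 1 array measured well above background, with a threshold of 0.05 on p after Benjamini-Hochberg adjustment, over probes and not over 1 probe a gene because all probes of the members were used. The fit against Mixture had 2 residual degrees of freedom and a prior of 1.41. p-values measure the spread between lines, each hybridised once. The fits were run on simulated data with a common SD for all probes, to check the size of the estimates. Real probes differ in spread, so that run does not bear on power or on the p-values here. RefSeq names (GRCm38.p6) came from the transcript for 22938 probes, the symbol for 6658, a synonym for 3107 and the file for 8452. A list gene is represented by its brightest probe.

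Named were all members, the 3 probes most like each member, and the 2 nearest coding genes on each side of a pair where they had probes. List genes were named from those past limma, the widest between lines or the farthest from Mixture, though not all of these. The 16 tissue markers past limma were not named. Other list genes in the text were chosen after their values were seen. The members and lists were chosen with earlier results of these data known. The labels give no replicate numbers: NPC replicate 1 is NS21, 2 is NS195R and 3 is NSEB5-2C. Alternatives were normexp (offset 50), quantile and median scaling, filters on dim probes, dim values raised to the limit of their array (for the ratio to Mixture added after the values were seen), 1 probe a gene, an intensity trend, the deposited table, a 2-fold rule and leaving out each line.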

Additional observations from a re-analysis of the deposited data

How the results depend on the processing

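In all alternatives run for the NPC lines against Mixture, 0 Zic probes passed limma, and the log2 ratio of each probe kept its sign. The adjusted p of the Zic probes ranged from 0.153 (median scaling) to 0.891 (dim values raised) without leaving out a line, and the number of passing probes stayed between 0 and 0 without any 1 line, where limma called 0 of all 29699 probes. Without 1 line the adjusted p ran from 0.178 to 0.999. Median scaling moved the median log2 ratio of all tested probes to 1.22, in place of 0.54, and that of Zic2 to 3.19. Over all probes limma called 280 higher and 2340 lower, against 1325 and 2485 with normexp, 932 and 2210 with quantile normalization, 752 and 2599 with no filter, 597 and 2376 with an intensity trend, 657 and 2674 with dim values raised, 186 and 1767 with 1 probe a gene, and 0 and 0 among the 18875 probes well above background on all 4 arrays. With normexp the 1.5-fold rule passed 2 Zic probes in place of 4, NS21 exceeded both other lines 2-fold for 0 in place of 2 and lay at least 2-fold below them for 2 in place of 4, and NS195R lay 2-fold above for 0 in place of 1. With quantile normalization NS195R lay 2-fold above for 0 and 2-fold below for 1, and with median scaling NS195R had 0 and 1 and NSEB5-2C lay 2-fold above for 2, since the log2 differences of Zic1 and Zic4 between these lines lie at -0.998 and 1.002 and that of Zic2 at -0.85. The offset of normexp draws dim probes together by its construction: the log2 difference of NS21 from the other lines became -4.25 for Zic1 (A_51_P194230), 0.42 for Zic2, 0.26 for Zic5 and -0.34 for Zic4 (A_51_P145480). No paired analysis was possible because the labels give no replicate numbers and Mixture has 1 array. Signal over background limits the values of Zic2, Zic4 and Zic5, and 1 array per line limits all.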
